A study of Homo sapiens with 4 samples.

Results

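PAX6, RAX, SIX3, SIX6 and LHX2, transcription factors of the embryonic eye field, and OTX2, FEZF2 and EMX2, transcription factors of the forebrain, were followed in cardiac cultures of human embryonic stem cells (hESCs). The 8 genes were chosen by symbol, and each was found by its Ensembl identifier among the 60234 genes counted. The cells were of the NKX2.5:GFP hESC line (genotype NKX2.5 eGFP/w), an established line with GFP at 1 NKX2-5 allele, so that fluorescence marks cells of the cardiac lineage. They were taken through spin embryoid body (EB) differentiation, given either retinoic acid (RA) at 1 µM or DMSO, the solvent (CTR), from day 4 to day 7, and sorted at day 31 into GFP-positive and GFP-negative cells, although the supplemental procedures place the sort a day earlier. RNA of each of the 4 sorted populations was sequenced once, so that no difference below could be held against replicates or tested. All 4 libraries share the reporter allele and the differentiation protocol, RA and CTR cells came from separate cultures, and the GFP-negative cells are defined only by the absence of the reporter. In sorted bulk RNA, fewer cells of a type and less RNA per cell cannot be told apart.

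The eye field is the patch of the anterior neural plate from which both retinas, the pigment epithelium and the optic stalks form. RAX, PAX6, SIX3, SIX6 and LHX2 are switched on there together, act on one another and set retinal against other neural fates, while OTX2 marks the whole anterior neural plate and later returns in pigment epithelium and photoreceptors. FEZF2 and EMX2 pattern the telencephalon, the part of the forebrain that forms the cortex. RA is a signal of more posterior levels of the embryo, and in the early neural plate an excess of it is known to reduce forebrain and favour hindbrain. It also shapes the optic cup later.

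The sequences directly before the start sites of SIX6, RAX, EMX2 and LHX2 are shown because the first 3 genes were far lower with RA in GFP-negative cells and LHX2 was not. They are RefSeq windows of 250 bases on GRCh38.p14, written 5′ to 3′ in the direction of transcription and ending at the base before the annotated start, and capitals mark a match to the homeodomain motif TAATTA. SIX6 lies at chr14:60508896-60509145 on the plus strand, RAX at chr18:59273455-59273704 on the minus strand, EMX2 at chr10:117542496-117542745 on the plus strand and LHX2 at chr9:124011518-124011767 on the plus strand.
SIX6: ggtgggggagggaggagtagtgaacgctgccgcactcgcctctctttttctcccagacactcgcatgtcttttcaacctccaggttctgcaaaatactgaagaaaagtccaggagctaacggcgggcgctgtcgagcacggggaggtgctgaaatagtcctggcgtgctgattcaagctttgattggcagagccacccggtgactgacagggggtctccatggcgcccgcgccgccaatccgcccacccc
RAX: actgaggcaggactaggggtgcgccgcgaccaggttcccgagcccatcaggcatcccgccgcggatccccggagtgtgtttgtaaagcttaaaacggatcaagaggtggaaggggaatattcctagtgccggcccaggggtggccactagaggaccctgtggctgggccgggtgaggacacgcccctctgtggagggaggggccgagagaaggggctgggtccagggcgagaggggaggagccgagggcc
EMX2: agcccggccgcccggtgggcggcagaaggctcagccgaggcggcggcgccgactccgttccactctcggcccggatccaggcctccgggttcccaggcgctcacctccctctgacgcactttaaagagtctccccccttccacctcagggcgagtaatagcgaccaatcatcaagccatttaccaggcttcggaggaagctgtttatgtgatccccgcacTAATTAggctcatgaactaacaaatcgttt
LHX2: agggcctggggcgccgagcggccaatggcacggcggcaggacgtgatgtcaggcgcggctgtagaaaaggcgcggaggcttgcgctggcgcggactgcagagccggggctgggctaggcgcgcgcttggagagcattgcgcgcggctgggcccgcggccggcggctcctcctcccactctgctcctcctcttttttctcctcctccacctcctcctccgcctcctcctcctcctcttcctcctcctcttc
The EMX2 window held the only TAATTA, 30 bases before the start. TAATTA was searched on both strands. So was TAATCC, the motif bound by OTX factors. The other motifs were AGGTCA, the core of the elements bound by RA receptors and other nuclear receptors, and the TATA box as TATAAA. The match overlapped no other motif, and the OTX, nuclear receptor and TATA box motifs were absent from all 15 windows of the 6 members listed in the promoter table, which were those of PAX6, RAX, SIX6, LHX2, OTX2 and EMX2. Among all 35116 windows of the same length, 4.35% held TAATTA and 5.62% the OTX motif, while 12.1% held the nuclear receptor motif and 10.7% the TATA box. LHX2 had the highest GC content of the 4 windows shown, 70.4%, with 25 CpG dinucleotides. RAX followed with 66.4% and 15, EMX2 with 60.4% and 20, and SIX6 with 60.0% and 16, beside a median of 58% and 11 over all windows.

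The deposited values were read counts, which summed to 4371101 reads in CTR GFP-negative cells and to between 26222787 and 28643091 in the other libraries up to 6.55 times as many. Counts were converted to CPM, counts relative to the size of the library, with TMM factors, which correct for differences in library composition, and differences were taken as log2(CPM + 1), a scale that understates the change of low genes. CPM and ratios carry 95% intervals that cover counting error only. A count of 3 reads, the floor used for a gene without reads, was worth 0.639 CPM in CTR GFP-negative cells and 0.105 to 0.117 CPM elsewhere. A gene was counted as measured in a pair of libraries if 1 of them held it at 1 CPM or more, and those at least 2-fold apart on the log2(CPM + 1) scale as past 2-fold. A gene measured through 1 library alone could only be higher in that library, which holds for the lists of genes as well. The sort was visible in the libraries, with NKX2-5 at 593 and 463 CPM in GFP-positive cells of CTR and RA and at 14.5 and 9.74 CPM in GFP-negative cells.

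The 8 genes were highest in CTR GFP-negative cells, the shallowest library. Their summed level was 236 CPM there (interval 223 to 251), 40.8 CPM (38.4 to 43.4) in RA GFP-negative cells, 18.7 CPM (17.2 to 20.4) in CTR GFP-positive cells and 10.7 CPM (9.53 to 12.05) in RA GFP-positive cells. At least 1 CPM was reached by all 8 genes in CTR GFP-negative cells, by 6 in RA GFP-negative, by 5 in CTR GFP-positive and by 2 in RA GFP-positive cells. At 4 reads or more, 8, 7, 8 and 4 genes were detected in the same order, and 3 genes had no read in RA GFP-positive cells.

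**Figure D1:**
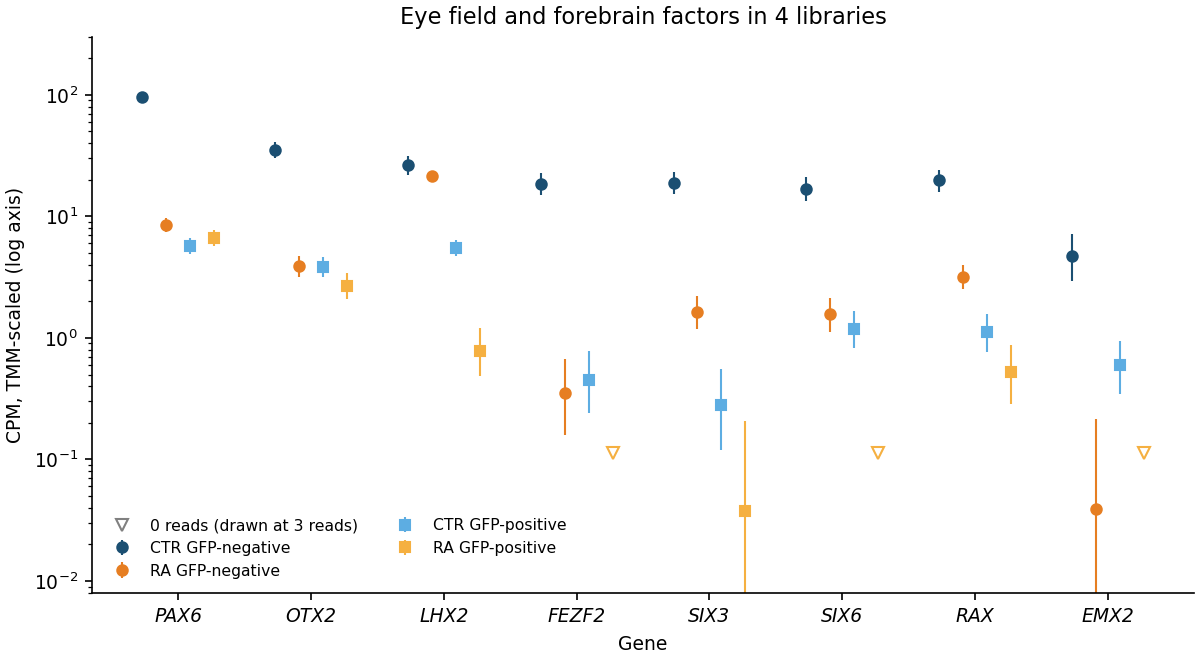
Level of each of the 8 genes in each library, in TMM-scaled CPM on a log axis, with bars for the exact Poisson 95% interval; circles are GFP-negative and squares GFP-positive cells, and open triangles stand for 0 reads, drawn at the floor of 3 reads. CTR GFP-negative cells hold the highest value of every gene, from 4.69 CPM for EMX2 to 96.3 CPM for PAX6, and only for LHX2 does RA GFP-negative, at 21.7 CPM, come near it.

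In GFP-negative cells, 7 of the 8 genes were past 2-fold lower with RA, by between 6.20-fold for RAX and 52.8-fold for FEZF2 among the genes with at least 4 reads in both libraries, and none was higher. LHX2 was the exception, at 0.827 of its CTR level. All 8 genes were measured in this pair, FEZF2 and EMX2 through the CTR library alone, so that the filter set the direction of these 2. Over all 18642 genes measured, 7.61% were past 2-fold lower and 8.69% past 2-fold higher. The median difference of the 8 genes was -2.84 in log2(CPM + 1), beside 0.04 over all genes.

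PAX6 (ENSG00000007372), the paired-box and homeodomain factor needed for lens and retina, lies on chromosome 11 of GRCh37 from 31806327 to 31839509. It had 452 reads in CTR GFP-negative, 218 in RA GFP-negative, 164 in CTR GFP-positive and 179 in RA GFP-positive cells, or 96.3, 8.50, 5.72 and 6.69 CPM. CTR GFP-negative cells thus stood alone, and the other libraries lay close together. With RA, PAX6 was 11.3-fold lower in GFP-negative cells (interval 9.62 to 13.4), a difference of -3.36 in log2(CPM + 1) and the eighth lowest of the 18642 genes. ELP4, a subunit of the Elongator complex on the opposite strand, covers 5241 of the 20639 merged exon bases of PAX6 (25.4%) in the annotation used here, and counting ignored strand. ELP4 had 18, 274, 389 and 441 reads in the same order of libraries, so that PAX6 had 25.1 reads per ELP4 read in CTR GFP-negative cells and 0.796, 0.422 and 0.406 in the others. With such counting, reads lying only on exon bases shared by both genes are assigned to neither. Whether the annotation used by the authors held the same overlap is not known. The part of ELP4 transcripts in the PAX6 counts of the last 3 libraries was not tested.

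RAX (ENSG00000134438), the homeobox gene without which no optic vesicle forms, lies on chromosome 18 from 56934267 to 56941318. Its reads were 93, 82, 32 and 14 in the order given for PAX6, or 19.8, 3.20, 1.12 and 0.523 CPM. CTR GFP-negative cells were well above the rest, and the GFP-positive libraries were lowest, with overlapping intervals. The RA level was 6.20-fold lower in GFP-negative cells (4.56 to 8.44), the smallest of the 7 ratios past 2-fold.

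SIX3 (ENSG00000138083), a repressor of WNT signalling in the anterior forebrain and an activator of PAX6 in the lens, lies on chromosome 2 from 45168841 to 45173210, and SIX6 (ENSG00000184302), its closest relative, expressed in retina, hypothalamus and pituitary, on chromosome 14 from 60975864 to 60979568. SIX3 had 89, 42, 8 and 1 reads, or 19.0, 1.64, 0.279 and 0.0374 CPM. SIX6 had 79, 40, 34 and 0 reads, or 16.8, 1.56 and 1.19 CPM and no read in RA GFP-positive cells. The pair ran alike in GFP-negative cells and parted in CTR GFP-positive cells. There were 0.888 SIX6 reads per SIX3 read in CTR GFP-negative (interval 0.647 to 1.22), 0.952 in RA GFP-negative (0.602 to 1.505) and 4.25 in CTR GFP-positive cells (1.93 to 10.6). With RA, SIX3 was 11.6-fold lower (7.94 to 17.1) and SIX6 10.8-fold lower (7.29 to 16.2) in GFP-negative cells.

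LHX2 (ENSG00000106689), a LIM homeodomain factor that turns the optic vesicle into an optic cup and sets cortical identity, lies on chromosome 9 from 126763949 to 126795580. It is also known from cells outside the nervous system, among them the stellate cells of the liver. Its reads were 123, 556, 158 and 21, or 26.2, 21.7, 5.51 and 0.785 CPM, so that both GFP-negative libraries were high and RA GFP-positive cells were lowest. In GFP-negative cells the ratio of RA to CTR was 0.827 (0.679 to 1.01), which leaves LHX2 at rank 5463 from the lowest of 18642 genes, whereas the other 7 ranked between 2 and 59.

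Of the forebrain factors, OTX2 (ENSG00000165588), on chromosome 14 from 57266623 to 57283411, had 165, 100, 110 and 72 reads, or 35.1, 3.90, 3.84 and 2.69 CPM. As for PAX6, 1 library stood out and the others were close. OTX2 was 9.02-fold lower with RA in GFP-negative cells (6.99 to 11.7). Its antisense transcript OTX2-AS1, which shares no exon base with it, had 20, 15, 2 and 2 reads, a difference of -1.73 in log2(CPM + 1) with RA in GFP-negative cells.

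FEZF2 (ENSG00000153266), a zinc finger repressor that later specifies the neurons projecting from cortex to spinal cord, lies on chromosome 3 from 62355356 to 62359999. It had 87, 9, 13 and 0 reads, or 18.5, 0.351 and 0.454 CPM and no read in RA GFP-positive cells. Only CTR GFP-negative cells held FEZF2 at more than 1 CPM. Its level was 52.8-fold lower with RA in GFP-negative cells (26.6 to 119), a difference of -3.85 and the second lowest of all 18642 genes after TYR. EMX2 (ENSG00000170370), a homeobox gene of the dorsal telencephalon and of the urogenital system, lies on chromosome 10 from 119301956 to 119309057 and had 22, 1, 17 and 0 reads, or 4.69, 0.0390 and 0.593 CPM and no read. The single read with RA gave a ratio of 0.00832 (0.000202 to 0.0515) in GFP-negative cells, a difference of -2.45 that a pseudocount of 5 CPM brought to -0.94, short of 2-fold. EMX2 was the only member with RA GFP-negative cells below CTR GFP-positive cells beyond the intervals of both CPM values, which ended at 0.217 CPM in the first and began at 0.346 CPM in the second.

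**Figure D2:**
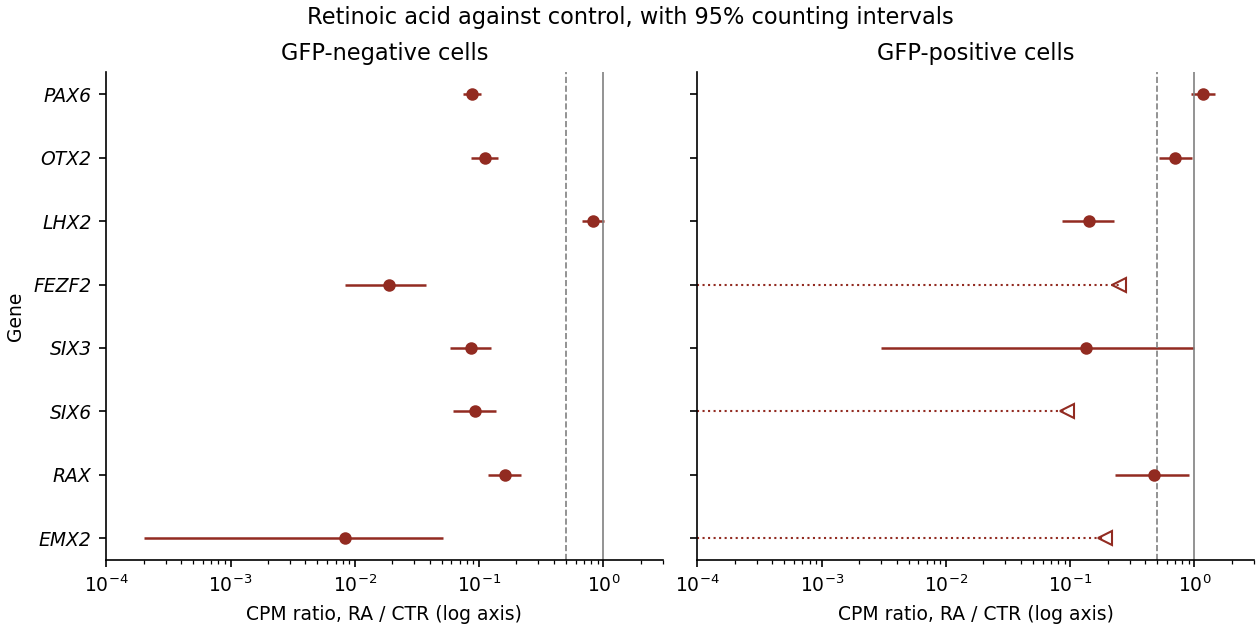
Ratio of RA to CTR CPM for each gene on a log axis, in GFP-negative cells (left) and GFP-positive cells (right), with bars for the Clopper-Pearson 95% interval, a solid line at equal levels and a dashed line at 2-fold lower; open triangles with dotted lines are upper bounds for genes with 0 reads after RA. In GFP-negative cells LHX2 is the only gene right of the dashed line, at 0.827, and in GFP-positive cells PAX6 lies at 1.17 and LHX2 at 0.142.

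In GFP-positive cells, the fraction with the cardiomyocyte genes, the 8 genes were low in both libraries. Changes of genes at such levels are understated on the log2(CPM + 1) scale. Of the 5 genes measured, 2 were past 2-fold lower and none was higher, among 17465 genes of which 2.12% were past 2-fold lower and 5.09% past 2-fold higher. The 2 were LHX2 and SIX6. Both, and RAX as well, were measured through the CTR library alone, so that the filter set their direction. LHX2 went from 158 reads to 21, and was 7.02-fold lower (4.44 to 11.7), a difference of -1.87. SIX6 went from 34 reads to none, at least 10.6-fold lower against the floor of 3 reads per library. Both were short of 2-fold with a pseudocount of 5 CPM in place of 1 CPM, at -0.86 and -0.31. PAX6 differed little, with a ratio of 1.17 (0.941 to 1.45), and RAX and OTX2 had ratios of 0.469 (0.231 to 0.904) and 0.701 (0.514 to 0.953). The remaining 3 genes were under 1 CPM in both libraries. FEZF2 had 13 reads in CTR and none with RA, at least 4.04-fold lower, EMX2 17 and none, at least 5.29-fold lower, and SIX3 8 and 1, a ratio of 0.134 (0.00302 to 0.999). The median of the 5 genes measured was -0.47, beside 0.01 over all genes.

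On the log2(CPM + 1) scale, LHX2 therefore had the smallest RA difference of the 8 genes in GFP-negative cells and the largest of the 5 measured in GFP-positive cells. For PAX6 and OTX2 the fractions stood the other way, with ratios of 0.0883 and 0.111 in GFP-negative cells against 1.17 and 0.701 in GFP-positive cells. With 1 library per condition, whether the RA differences of the fractions differ was not tested.

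Between fractions of CTR cells, all 8 genes were past 2-fold higher in GFP-negative than in GFP-positive cells. Of these, SIX3, FEZF2 and EMX2 were under 1 CPM in GFP-positive cells and measured through the GFP-negative library alone, so that the filter set their direction. Over all 18786 genes measured, 17.0% were past 2-fold higher and 14.1% past 2-fold lower. SIX3 stood furthest apart, 67.9-fold higher (33.003 to 162), followed by FEZF2 with 40.8-fold (22.7 to 79.8), RAX with 17.7-fold (11.8 to 27.4), PAX6 with 16.8-fold (14.04 to 20.2), SIX6 with 14.2-fold (9.37 to 21.9) and OTX2 with 9.15-fold (7.15 to 11.8). EMX2, with 7.90-fold (4.00 to 15.8), and LHX2, with 4.75-fold (3.72 to 6.05), were the least apart. The median difference was 3.16 in log2(CPM + 1), beside -0.03 over all genes. This comparison shares the CTR GFP-negative library, where the genes are high, with the RA comparison of GFP-negative cells, so that the 2 are not independent.

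After RA, 6 of the 8 genes were measured and 4 were past 2-fold higher in GFP-negative cells, among 18111 genes of which 14.1% were past 2-fold higher and 10.2% past 2-fold lower. The 4, LHX2, RAX, SIX3 and SIX6, were all measured through the GFP-negative library alone, so that the filter set their direction. LHX2 had the largest difference in log2(CPM + 1), 3.67, rank 48 from the highest of all genes measured, and was 27.6-fold higher (17.9 to 44.9). RAX was 6.10-fold higher (3.44 to 11.7), SIX6 at least 13.9-fold higher against the floor, and SIX3, with 42 reads against 1, had a ratio of 43.8 (7.44 to 1770). PAX6 and OTX2, by contrast, were nearly level between the fractions, with ratios of 1.27 (1.04 to 1.56) and 1.45 (1.06 to 1.99). FEZF2 had 9 reads against none, at least 3.13-fold higher, and EMX2 1 against none. With a pseudocount of 5 CPM only LHX2 was past 2-fold, at 2.20. The median of the 6 genes was 1.35, beside -0.01 over all genes.

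The share that each gene takes of the members' own reads does not depend on how libraries are scaled. PAX6 took 40.7% of the 1110 reads of the 8 genes in CTR GFP-negative cells (interval 37.8 to 43.7) and LHX2 11.1% (9.29 to 13.1). In RA GFP-negative cells, with 1048 reads, the order was turned, with 53.1% for LHX2 (50.0 to 56.1) and 20.8% for PAX6 (18.4 to 23.4). The reads of LHX2 per read of PAX6 were 0.272 (0.221 to 0.333) in CTR GFP-negative, 2.55 (2.18 to 3.00) in RA GFP-negative, 0.963 (0.769 to 1.21) in CTR GFP-positive and 0.117 (0.0709 to 0.185) in RA GFP-positive cells, and no pair of these intervals overlaps. The other ratios to PAX6 were compared between the GFP-negative libraries. SIX3 had 0.197 reads per PAX6 read in CTR (0.155 to 0.248) and 0.193 with RA (0.135 to 0.269), and SIX6 had 0.175 (0.136 to 0.222) and 0.183 (0.128 to 0.258). RAX went from 0.206 (0.163 to 0.258) to 0.376 (0.288 to 0.487), and OTX2 from 0.365 (0.304 to 0.437) to 0.459 (0.358 to 0.584). FEZF2 went from 0.192 (0.151 to 0.243) to 0.0413 (0.0186 to 0.0798), and EMX2, with a single read after RA, from 0.0487 (0.0302 to 0.0746) to 0.00459 (0.000116 to 0.0258). Between the GFP-negative libraries, the intervals of the ratios to PAX6 thus overlapped for SIX3, SIX6 and OTX2, while those of LHX2 and RAX were higher and those of FEZF2 and EMX2 lower after RA.

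**Figure D3:**
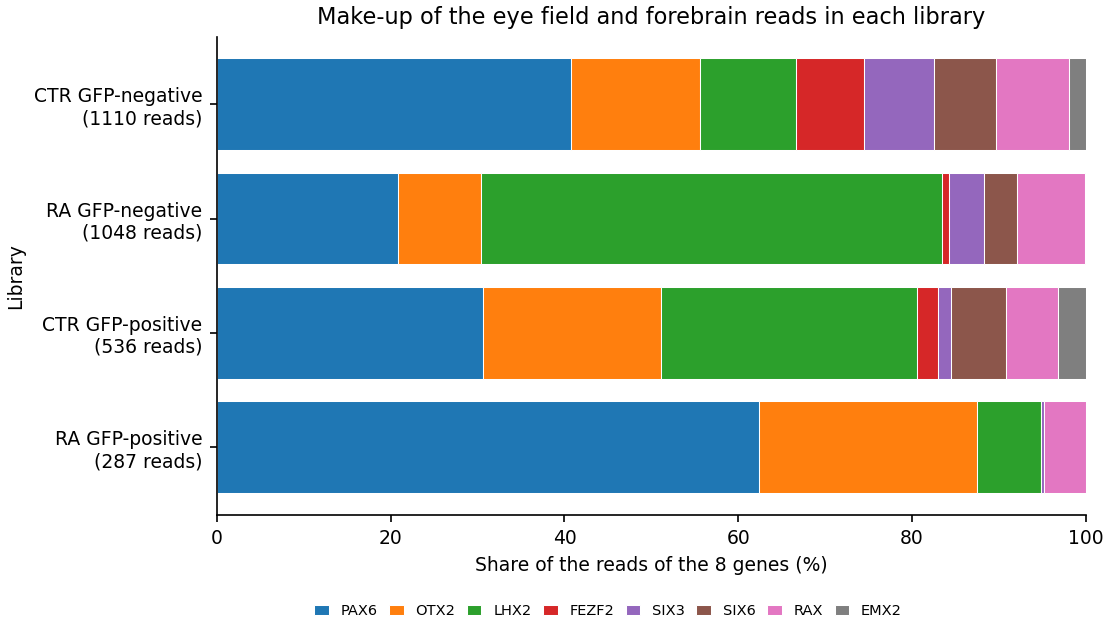
Share of the reads of the 8 genes that each gene takes in each library, in percent, with the number of reads in brackets. LHX2 widens from 11.1% in CTR GFP-negative to 53.1% in RA GFP-negative cells and shrinks to 7.32% in RA GFP-positive cells, where PAX6 takes 62.4%.

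Levels between genes were compared as CPM per kilobase (kb) of the canonical transcript. In CTR GFP-negative cells PAX6 led with 35.1 CPM per kb, above OTX2 with 11.7. OTX2, LHX2, FEZF2, SIX3, SIX6 and RAX followed down to 6.08 CPM per kb, with no neighbours apart beyond counting error, and EMX2 was last with 1.81. The lead of PAX6 depends on the length used, since on all merged exons, which include many rare starts and ends, it had 4.66 CPM per kb and lay below OTX2, LHX2, FEZF2, SIX3, SIX6 and RAX, and its places in the other libraries depend on the length likewise. In RA GFP-negative cells LHX2 led with 9.04 CPM per kb, above PAX6 with 3.10, OTX2 with 1.29 and RAX with 0.982, of which the last 2 were not apart, and SIX3 and SIX6 were level at 0.603 and 0.601. In CTR GFP-positive cells LHX2 with 2.30 and PAX6 with 2.09 were not apart and OTX2 was below both with 1.27. In RA GFP-positive cells PAX6 with 2.44 was above OTX2 with 0.894, and LHX2 with 0.328 and RAX with 0.161 were not apart.

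Among lists for structures that the 8 factors help to build, those of pigment epithelium, optic vesicle and lens had more genes past 2-fold lower than higher with RA in GFP-negative cells. In the pigment epithelium list, 8 of 12 genes measured were past 2-fold lower and none was higher, with a median difference of -2.25. TYR, the rate-limiting enzyme of melanin synthesis, had 85, 5, 7 and 1 reads in CTR GFP-negative, RA GFP-negative, CTR GFP-positive and RA GFP-positive cells and the lowest difference of all genes, -4.00. DCT, another melanin enzyme, had 511, 180, 157 and 35 reads, and PMEL, the fibril protein of pigment granules, 2087, 1236, 747 and 640. Melanin genes are shared by pigment epithelium and by melanocytes of the neural crest, and RPE65, the isomerase of the visual cycle and a defining gene of mature pigment epithelium, had 0 reads in CTR GFP-negative cells and 2, 63 and 27 in the others. RLBP1, a retinal binding protein, had 30, 6, 8 and 0 reads, and BEST1, a chloride channel, 21, 107, 98 and 68. The list's summed level was 1110 CPM in CTR GFP-negative cells and 401, 354 and 486 CPM in RA GFP-negative, CTR GFP-positive and RA GFP-positive cells. SERPINF1, a secreted factor not limited to pigment epithelium, made up 171, 166, 292 and 432 CPM of these sums, and the median levels of the list were 18.1, 4.17, 2.83 and 1.31 CPM. Of the genes past 2-fold lower, 4 of 8 in the pigment epithelium list were measured through the CTR library alone, as were 4 of 10 in the optic vesicle list, 3 of 7 in the lens list, 5 of 6 in the telencephalic list and 3 of 4 in that of diencephalon and hypothalamus.

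Among 14 genes measured of the optic vesicle and retinal progenitors, 10 were past 2-fold lower and 1, TBX2, was higher, with a median of -1.37. HMX1, a homeobox gene of retina and lens, had 154, 69, 36 and 6 reads, VAX1, a factor of the optic stalk, 38, 2, 5 and 0, and HES5, a target of Notch signalling, 52, 10, 7 and 2. VSX1 had no read in 3 libraries and 2 in CTR GFP-positive cells.

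In the lens list 7 of 11 genes measured were past 2-fold lower and none was higher, with a median of -1.29. CRYAA, the main alpha crystallin of the lens, had 846, 519, 175 and 25 reads, or 180, 20.2, 6.11 and 0.935 CPM, and FOXE3, a forkhead factor of the lens epithelium, 60, 35, 12 and 9 reads. The lens channel gene MIP had 1, 8, 0 and 3 reads. Of 14 genes counted of retinal neurons and photoreceptors 8 were measured, 2 were past 2-fold lower and 2 higher, and the median was -0.22. All 4 were measured through 1 library alone, so that the filter set their direction. The list summed to 190, 194, 520 and 420 CPM, of which RBPMS, an RNA-binding protein of retinal ganglion cells that is also expressed in heart, held 165, 177, 510 and 409. ONECUT1, a factor of horizontal cells and of liver, had 0, 103, 2 and 7 reads. RCVRN, the calcium sensor of photoreceptors, had no read in any library, and CRX, the OTX relative that drives photoreceptor genes, had 20, 11, 14 and 23.

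Both forebrain lists had more genes past 2-fold lower than higher. Of 11 telencephalic genes measured 6 were past 2-fold lower and 1 higher, with a median of -1.21, and of 7 genes of diencephalon and hypothalamus 4 were lower and none higher, with a median of -1.20. DMRTA2, a factor of the early cortex, had 35, 3, 11 and 3 reads and TBR1, a factor of early cortical neurons, 29, 9, 16 and 0. GSX1 had no read in any library, and NKX2-1 none in either CTR library.

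**Figure D4:**
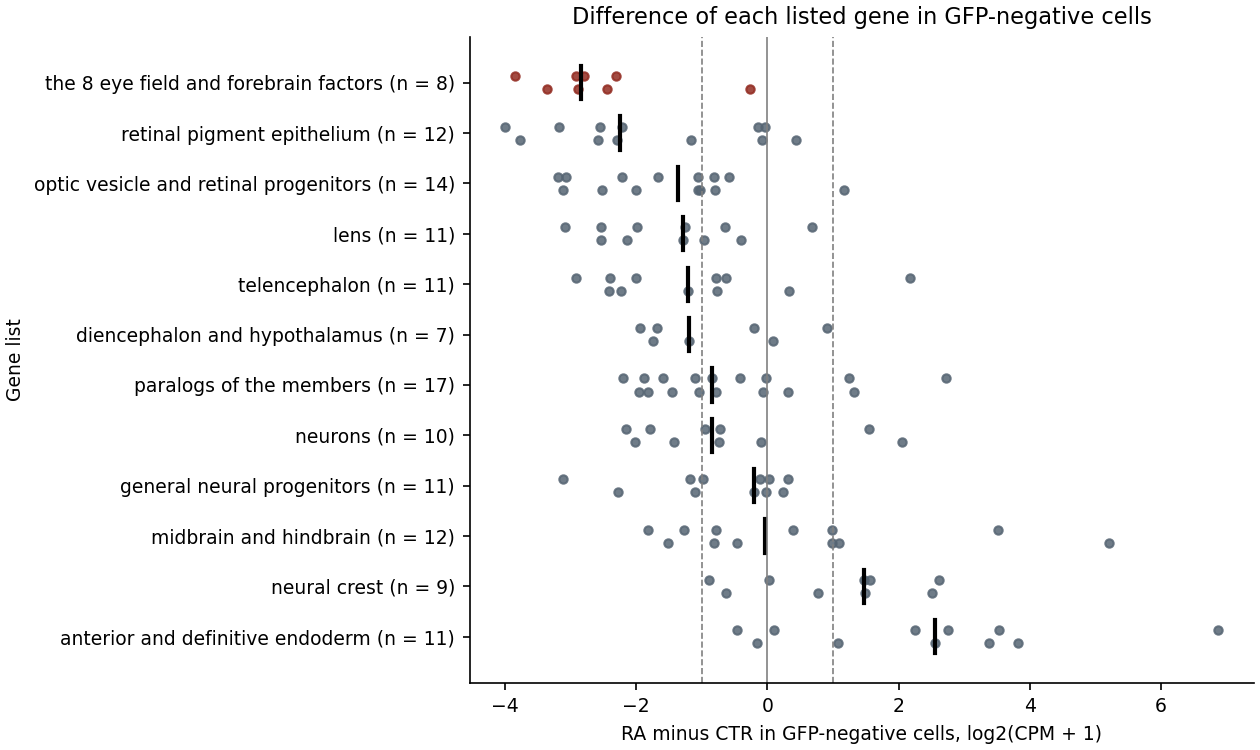
Difference of each measured gene between RA and CTR in GFP-negative cells, in log2(CPM + 1), for the 8 genes (top) and 11 other lists, with a bar at each median and dashed lines at 2-fold. The medians run from -2.84 for the 8 genes and -2.25 for pigment epithelium through -0.04 for midbrain and hindbrain to 2.55 for endoderm.

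The lists of more posterior or more general neural tissue and of secreted signals had medians closer to 0. In the midbrain and hindbrain list 3 of 12 genes measured were past 2-fold higher and 3 lower, with a median of -0.04, and 2 of the 3 higher and all 3 lower genes were measured through 1 library alone. HOXA3, a homeobox gene of the hindbrain and pharyngeal arches, had 0, 919, 4 and 107 reads, and HOXA2, expressed further forward in the hindbrain, 0, 266, 0 and 15, whereas EN1, the homeobox gene of the midbrain boundary, had 0, 10, 0 and 5. HOX genes are also expressed in mesoderm and endoderm. LMX1A, of the roof plate, had 19, 11, 7 and 19 reads. Of 11 general neural progenitor genes, 4 were past 2-fold lower, SOX3 and HES5 among them, and none higher, with a median of -0.20. SOX2 had 158, 366, 25 and 30 reads, or 33.6, 14.3, 0.872 and 1.12 CPM, SOX3 83, 73, 25 and 0 reads, and SOX1, the defining gene of early neural plate, only 4, 22, 7 and 0. Of 14 genes for secreted signals of the anterior neural plate, 5 were past 2-fold higher and 5 lower, with a median of 0.12. Among these, 2 of the higher and 3 of the lower genes were measured through 1 library alone. SHH, the ventral midline signal that is also made by endoderm, had 0, 630, 2 and 19 reads, and SFRP2, a secreted WNT modulator, 936, 1584, 194 and 117, or 199, 61.7, 6.77 and 4.37 CPM.

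Close relatives of the 8 genes moved in both directions. Of 24 paralogs listed, 17 were measured in GFP-negative cells, 8 were past 2-fold lower and 3 higher, with a median of -0.85. Among these, 3 of the lower and 2 of the higher genes were measured through 1 library alone. FEZF1 had 28, 13, 22 and 4 reads, PAX2, a factor of optic stalk and kidney, 42, 40, 13 and 1, and OTX1 47, 54, 78 and 67, or 10.0, 2.10, 2.72 and 2.51 CPM. The reads of OTX2 per read of OTX1 went from 3.51 (2.53 to 4.96) in CTR GFP-negative cells to 1.85 (1.32 to 2.63) in RA GFP-negative cells. PAX1, a factor of pharyngeal pouches and vertebral precursors, was past 2-fold higher, with 1, 179, 0 and 9 reads.

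Markers of other cell types moved between the same libraries, and their part in the differences of the 8 genes was not tested. In GFP-negative cells, 8 of 11 endoderm genes measured were past 2-fold higher with RA and none lower, with a median of 2.55, and 5 of these 8 were measured through the RA library alone. AFP, the fetal plasma protein of liver and yolk sac, had 14 reads in CTR and 11921 with RA. The summed level of that list was 256 CPM in CTR GFP-negative, 867 in RA GFP-negative, 549 in CTR GFP-positive and 672 in RA GFP-positive cells. GATA4, which is also a cardiac factor, held 213, 192, 530 and 603 CPM of it, and the list's median levels were 1.70, 14.8, 0.279 and 1.35 CPM. FOXA2 and CER1 had no read in CTR GFP-negative cells. Fibroblast genes summed to 32445, 62188, 4036 and 15368 CPM in the same order, with 4 of 10 past 2-fold higher with RA in GFP-negative cells and 8 of 9 in GFP-positive cells. Cardiomyocyte genes summed to 874, 438, 17823 and 15945 CPM, with 3 of 8 past 2-fold lower with RA in GFP-negative and none in GFP-positive cells. Endothelial genes summed to 427, 509, 91.4 and 114 CPM, with 2 of 10 past 2-fold higher in GFP-negative cells. Neural crest genes summed to 99.2, 253, 95.3 and 152 CPM, with 5 of 9 past 2-fold higher in GFP-negative cells. Of these 5, 2 were measured through the RA library alone, and FOXD3 was without a read in CTR GFP-negative cells. Neuronal genes summed to 112, 128, 32.5 and 81.9 CPM, with 2 of 10 past 2-fold higher and 4 lower in GFP-negative cells. There, 8 of the 10 were lower at any size of difference, with a median of -0.84. STMN2 held 16.8, 72.7, 1.26 and 42.5 CPM of the sums. Undifferentiated-cell genes summed to 142, 191, 41.7 and 55.2 CPM, with 5 of 11 past 2-fold higher and 1, SOX2, lower in GFP-negative cells. Of the 5 higher genes, 3 were measured through the RA library alone, and POU5F1 had 0, 395, 1 and 27 reads.

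Lists were also set for tissues where single members are expressed outside eye and forebrain. For LHX2, of 9 stellate cell genes measured 3 were past 2-fold higher with RA in GFP-negative cells and none lower. At any size of difference 7 were higher and 2 lower, with a median of 0.88. The summed level was 852, 1167, 1342 and 2095 CPM, of which DES, a gene of all muscle, held 328, 278, 1127 and 1588. PDGFRB, also in the fibroblast list, held 257, 472, 23.3 and 124 CPM. RELN, a defining marker, was lower with RA, at 67.9, 36.2, 54.7 and 39.4 CPM. For PAX6, which also marks endocrine cells of pancreas and gut, 3 of 8 endocrine genes were higher and 3 lower, all 6 measured through 1 library alone, and the summed level was 20.4, 39.8, 11.5 and 82.5 CPM. ISL1, which is also expressed in heart progenitors, held 4.47, 9.55, 7.36 and 77.7 CPM of it, and 9 of 15 genes had no read in RA GFP-positive cells. NEUROG3 and GAST had no read in any library, and INS and GCG none in 3, all but RA GFP-negative cells. For EMX2, 1 of 5 kidney and urogenital genes was higher and 1 lower, with a summed level of 94.98, 113, 54.4 and 134 CPM and PAX8 at 0, 1, 2 and 3 reads.

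In GFP-positive cells fewer genes of the eye and forebrain lists were measured. Of 9 optic vesicle genes measured 3 were past 2-fold higher and none lower, of 10 pigment epithelium genes 1 was higher and 2 lower, of 6 lens genes 2 were lower and none higher, and of 3 telencephalic genes 1 was higher and none lower. None of 4 genes of diencephalon and hypothalamus and none of 3 of retinal neurons was past 2-fold, whereas 5 of 10 midbrain and hindbrain genes were higher and none lower. CRYAA and PITX3 were the lens genes that were lower. TYRP1, a melanin enzyme, was the pigment gene that was higher, with 81 reads in CTR and 200 with RA.

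The genes whose pattern over the 4 libraries lay closest to the mean of the 8 were sought among 10815 genes with at least 10 CPM in CTR GFP-negative cells, by the Euclidean distance between log2(CPM + 1) profiles centred on each gene's own mean. The mean profile was 2.36 in CTR GFP-negative, -0.25 in RA GFP-negative, -0.73 in CTR GFP-positive and -1.38 in RA GFP-positive cells. MAB21L1, an eye and lens gene, was nearest with a distance of 0.18 and 102, 84, 60 and 21 reads. RMST, a long noncoding RNA of neural progenitors, followed with 0.34, FOXE3 with 0.40, MCOLN2, a cation channel, with 0.41, ZIC5, a zinc finger factor of the neural plate, with 0.41, and CELF3, a neuronal RNA-binding protein, with 0.42. The others were FGFBP3 with 0.43, ENSG00000261409 with 0.44, the adhesion molecule L1CAM with 0.46 and SYT10, a synaptotagmin, with 0.50. Of the 8 genes themselves, RAX and SIX6 lay nearest to their mean, at 0.36 and 0.38, and LHX2 furthest, at 2.01. These distances describe 4 libraries and carry no test.

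**Figure D5:**
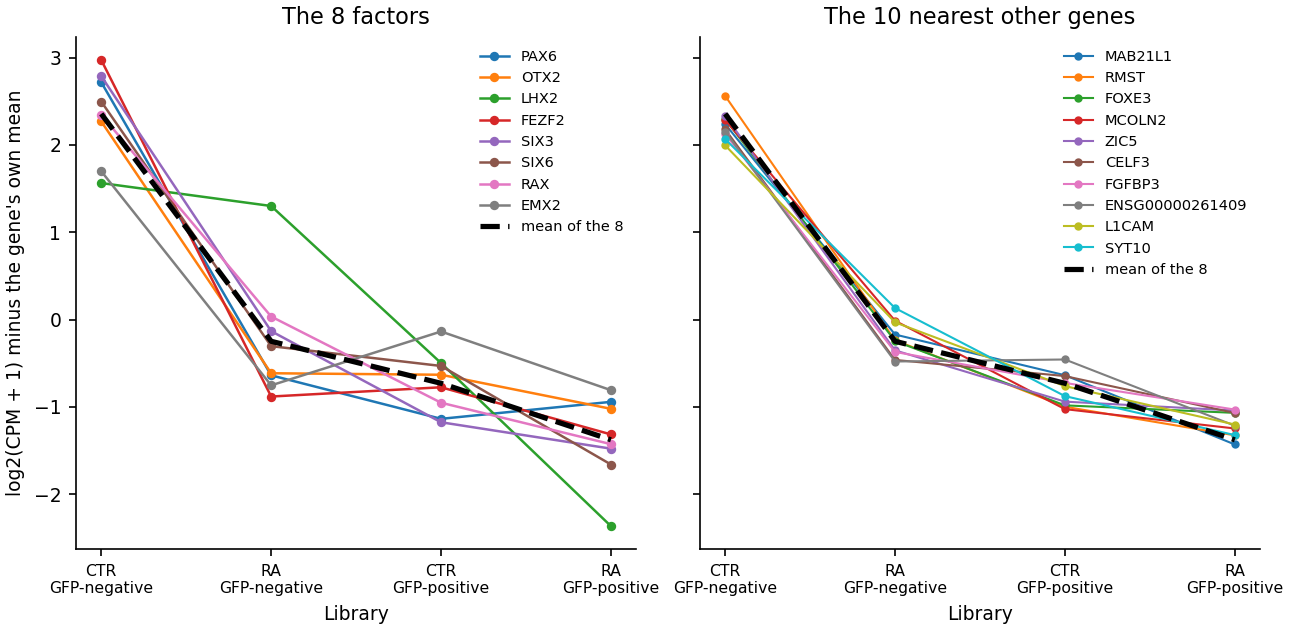
Profiles over the 4 libraries of the 8 genes (left) and of the 10 other genes nearest to their mean (right), as log2(CPM + 1) minus the gene's own mean, with the mean of the 8 as a dashed line; lines join libraries to guide the eye and imply no order. LHX2 leaves the common course in RA GFP-negative cells, and the nearest gene, MAB21L1, lies at a distance of 0.18 from the mean.

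Besides ELP4 and OTX2-AS1, other transcripts overlap the 8 genes, and those of them that were counted and share exon bases with a member had at most 8 reads in any library. PAUPAR and ENSG00000285283, which share 191 and 107 exon bases with PAX6, were not analysed here. SIX3-AS1, which shares 207 of the 2713 exon bases of SIX3 (7.63%), had 0, 7, 0 and 0 reads, and EMX2OS, which shares 348 of the 3261 exon bases of EMX2 (10.7%), had 3, 0, 3 and 0. Within LHX2, LHX2-AS1 had 2, 5, 1 and 0 reads with no shared exon base, ENSG00000231227 had 0, 6, 0 and 0 with none, and ENSG00000234921, which shares 105 of 2497 bases (4.21%), 3, 8, 3 and 0. C14orf39, which spans SIX6 on the opposite strand without a shared exon base, had 8, 73, 89 and 140 reads, and its order over the libraries was not that of SIX6.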

How the data were processed

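RNA sequencing libraries of 4 sorted populations were analysed, 1 per condition, grouped by the treatment and sort labels. Per the labels and the study's methods, the authors trimmed paired reads by base quality, used GSNAP on a custom hg19 genome and kept uniquely placed reads, sorted with SAMtools 0.1.18, and counted per Ensembl gene with HTSeq 0.6.1p1, ignoring strand. The deposited values are these read counts, with no normalization. The Ensembl release is not given in the sources used here. With this counting, reads lying only on exon bases shared by genes of both strands are lost, and uniquely placed reads under-represent near-identical copies. Libraries held 4371101 to 28643091 reads, so that 1 read was worth 0.213 CPM in the shallowest library and 0.0349 to 0.0390 CPM in the others.

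TMM factors of all 4 libraries (1.07 for CTR GFP-negative, 0.979 for RA GFP-negative, 1.00 for CTR GFP-positive and 0.951 for RA GFP-positive) came from edgeR 4.0.16 in R 4.3.3 and gave the CPM. Differences were taken in log2(CPM + 1) between each RA library and the CTR library of its fraction, and between the fractions of each treatment. No test was run. Intervals are at 95%, exact Poisson for CPM and Clopper-Pearson for ratios, and like the floor of 3 reads they hold counting error alone, since amplified reads need not be separate molecules. Measured means 1 CPM or more in a library of the pair, and 2-fold was a difference of 1 in log2(CPM + 1).

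The 8 genes and the 21 other lists of genes were chosen with earlier results of these data known, so that a list's direction is not independent evidence. Named from each list were up to 3 genes with the largest RA difference in GFP-negative cells, up to 2 in the other direction, the defining markers, overlapping transcripts and the 10 nearest profiles. RCVRN, GSX1, NKX2-1, GAST, INS and GCG are named beyond this rule as genes at 0 reads. SERPINF1, ISL1, RBPMS and PDGFRB are named beyond it as genes that carry much of a list's sum. All of these were chosen after their values were seen. Names came from GENCODE v44 lifted to GRCh37 for 55538 of 60234 identifiers (92.2%), a later annotation than the authors'. Of 261 listed symbols 254 were counted, and 7 were not analysed here. Some listed genes that the rule would name enter the counts and medians of their lists but are not reported here by name. Promoter windows are RefSeq sequences on GRCh38.p14, and no coordinate was converted between builds. Alternatives were 5 other scalings, among them DESeq2 1.42.0 size factors, 3 other pseudocounts, 3 other filters and 2 other thresholds. The procedure was tested on simulated data that held counting error alone, with changes only in genes of intermediate level. That simulation did not cover variation between cultures or genes near the floor. Plots used matplotlib 3.10.9 and Python 3.11.15.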

Additional observations from a re-analysis of the deposited data

Results flagged for a closer look

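Of 130 members and listed genes measured in both fractions, 22 had RA ratios in opposite directions in GFP-negative and GFP-positive cells, each with a counting interval that leaves out equal levels. In 17 of them RA was lower in GFP-negative and higher in GFP-positive cells. With 1 library per condition this difference between fractions was not tested. The values of 6 of them are given here, TYRP1 because the report names it and the others because the rule picked them from their lists. ERBB3, a neuregulin receptor of the neural crest list, was higher by 2.61 in log2(CPM + 1) in GFP-negative cells and lower in GFP-positive cells, at -1.96. TBX2, a T-box factor of dorsal retina and of heart, was at 1.17 and -0.32, and the lens filament gene BFSP1 at 0.68 and -0.82. TYRP1, the melanin enzyme, was at -2.22 in GFP-negative and 1.15 in GFP-positive cells. DES, the muscle filament gene, was at -0.24 in GFP-negative and 0.49 in GFP-positive cells, and GATA4, a factor of heart and endoderm, at -0.15 and 0.19.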

How the results depend on the processing

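The counts of the 8 genes past 2-fold stayed within 1.5 times their value under every alternative run in the RA comparison of GFP-negative cells, where they were 6 or 7, and between the CTR fractions, where they were 7 or 8. In the other pairs they rested on low levels. In the RA comparison of GFP-positive cells, 2 genes became 0 with a pseudocount of 5 CPM, 0 with a filter of 10 CPM and 0 at 4-fold. Between the RA fractions, 4 genes became 1 with the same pseudocount, 1 with the same filter and 1 at 4-fold. Under the 5 other scalings and 3 other pseudocounts, none of the 27 differences of measured members changed sign, and 34 of 216 values moved beyond the counting interval. The widest ranges were those of EMX2 in RA against CTR GFP-negative cells, from -6.91 without a pseudocount to -0.94 with 5 CPM, and of SIX3 between the RA fractions, from 5.45 to 0.40, whereas LHX2 in RA against CTR GFP-negative cells stayed between -0.39 and -0.23. Scaling by library size alone shifted the median of all genes in that pair by -0.13, and library size without mitochondrial and the 10 most abundant genes by -0.11. Depth limits the CTR GFP-negative library, which is the shallowest and the one where the 8 genes were highest, so that the differences of the 8 genes in both comparisons with it rest on that 1 library and a gene without reads there may reach 0.639 CPM. No paired analysis was possible because the labels carry no replicate numbers and each condition has 1 library.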
